A study of Sus scrofa with 11 samples.

Results

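The genes described are those of the insulin receptor, AKT and mTOR pathway in a thigh muscle, the *M. semimembranosus*, of Duroc gilts fed a low protein (LP) or a high protein (HP) diet. The list held 10 genes: INSR, IRS1, PIK3R1, AKT1, AKT2, MTOR, RPTOR, RPS6KB1, TSC2 and RHEB. A probe set, a group of short probes read together as 1 level, was taken for a gene where the platform annotation gave that symbol and no other. By this rule 6 of the 10 genes had 9 probe sets among the 23999 tested, which cover 6765 genes with a single symbol. PIK3R1, MTOR, RPTOR and RPS6KB1 had no such probe set and were not analysed here. The regulatory subunit of PI3-kinase, the mTOR kinase itself, its partner RAPTOR and the ribosomal S6 kinase are therefore missing from the account.

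All 11 pigs were purebred Duroc gilts that received their diet for 63 days from about 10 weeks of age. The 5 LP gilts ate 128 g/kg crude protein with 7 g/kg total lysine, and the 6 HP gilts ate 217 g/kg crude protein with 13 g/kg total lysine, at equal dietary energy. Each pig had 1 Affymetrix Porcine array of whole muscle, so the pig was the replicate. The study blocked its gilts by starting weight and kept them in pens, but the sources used here do not tell the weight block, pen or slaughter date of a pig, and their part in any difference was not tested.

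Insulin binds its receptor, INSR, a tyrosine kinase that phosphorylates docking proteins such as IRS1. These recruit PI3-kinase, whose lipid product brings the kinase AKT to the membrane. In muscle AKT2 drives glucose uptake, and AKT also phosphorylates TSC2, the part of the TSC complex that switches off the small GTPase RHEB. Free RHEB activates mTORC1, the complex that promotes translation and muscle growth when amino acids are plentiful. Control along the pathway lies largely in protein phosphorylation and location, which arrays of mRNA do not measure.

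Levels are the authors' values on a log2 scale, on which 1 unit is a doubling. All arrays had the same median. A probe set was taken as above background on an array where its level was higher than each of the 23 negative controls there, which was so for between 74.9% and 85.3% of probe sets per array. The 27 spike-in probe sets, which read bacterial and phage transcripts added at hybridisation, had a mean level of 11.43 to 11.77 on LP arrays and 11.30 to 12.22 on HP arrays. HP replicates 1, 2 and 4 were the highest in this measure. The difference between the 3' and 5' probe sets of actin, a measure of RNA and labelling quality, spanned 5.12 to 5.93 on LP arrays and 5.38 to 6.46 on HP arrays. Neither measure separated the diets beyond the spread between arrays (difference -0.26, two-sided exact permutation p = 0.186 for the spike-ins and -0.43, p = 0.123 for actin).

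None of the 9 probe sets of the pathway genes passed the test between LP and HP. The study called genes without adjustment for the number tested, and the same was done here. By limma's moderated test at a p of 0.05 or less, 5.11% of all probe sets passed. By the exact permutation test of the difference of means 0 of 9 passed, against 5.4% of all probe sets. In 0 of 9 did the levels of LP and HP pigs not overlap, against 0.579% of all. No probe set of the array had a Benjamini-Hochberg adjusted p under 0.05, and the smallest adjusted p on the array was 0.644. The difference, LP minus HP, was below 0 for 7 of the 9 probe sets, as it was for 12616 of the 23999. Levels of bulk muscle cannot tell fewer cells of a type from less RNA per cell.

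**Figure D1:**
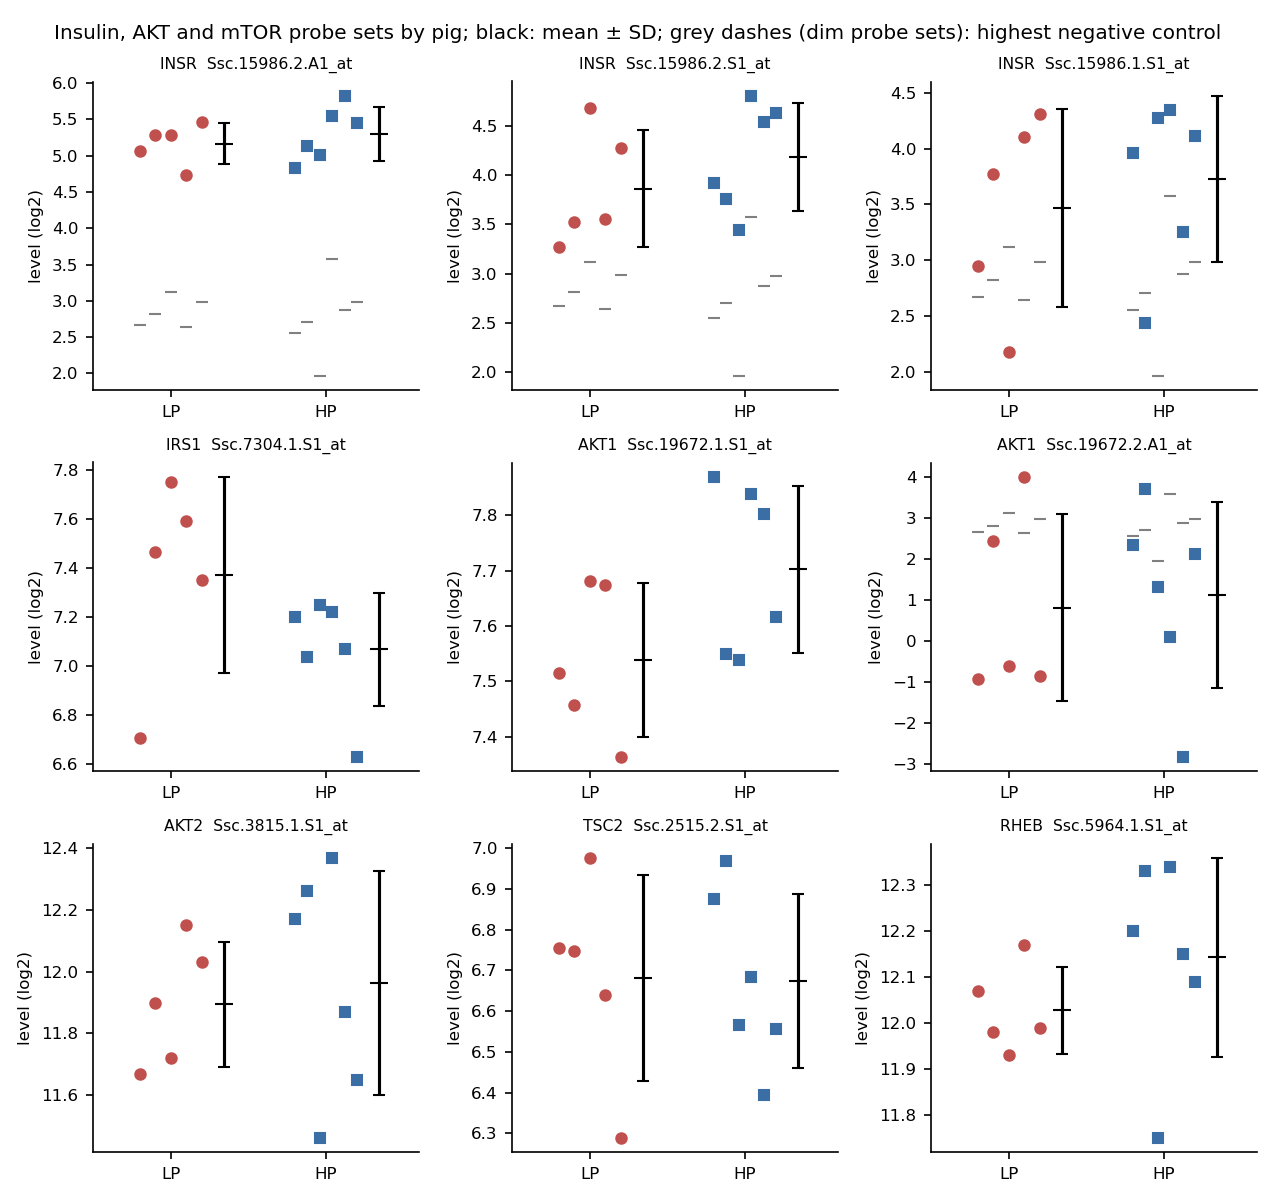
Level (log2) of each of the 9 probe sets in every pig, with LP pigs as circles and HP pigs as squares, each panel on its own axis. Black bars are the mean ± SD, and grey dashes mark the highest negative control of each array where a probe set was dim. The diets overlap in every panel. For IRS1, 4 of the 5 LP pigs lie above all HP pigs, and the probe set Ssc.19672.2.A1_at of AKT1 lies above the dashes on 2 arrays.

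INSR was read by 3 probe sets, all dim. The brightest, Ssc.15986.2.A1_at, was above the negative controls on all 11 arrays. Its levels were 5.07, 5.28, 5.28, 4.73 and 5.47 in LP replicates 1 to 5, and in HP pigs the lowest was 4.83, the median 5.30 and the highest 5.83. The LP pigs lay inside the HP range except LP replicate 4, which was the lowest of all. The means were 5.17 ± 0.28 in LP and 5.30 ± 0.37 in HP (SD, n = 5 and 6), a difference of -0.14 with a 95% interval of -0.58 to 0.31 (limma p = 0.516, exact permutation p = 0.522).

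Ssc.15986.2.S1_at, which the array's naming places on the same source sequence as the brightest INSR probe set, was also above the controls on every array. Its LP levels were 3.27, 3.52, 4.68, 3.55 and 4.28, and its HP levels ran from 3.45 through a median of 4.23 to 4.81. The low end was formed by 3 LP pigs and HP replicate 3, and both diets reached above 4.6. The difference was -0.32 ± 0.32 (SE), with an interval of -1.04 to 0.39 (limma p = 0.341, exact permutation p = 0.351). These 2 probe sets share a sequence and differ in orientation, so they are not independent readings of INSR, and which of them reads the mRNA strand is not given in the sources used here.

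The remaining INSR probe set, Ssc.15986.1.S1_at, lay close to background. It exceeded the controls in 4 of 5 LP and 5 of 6 HP pigs. LP levels were 2.95, 3.78, 2.18, 4.11 and 4.31, and HP levels had a low of 2.44, a median of 4.04 and a high of 4.35. Its difference of -0.27 had the interval -1.27 to 0.74 (limma p = 0.57, exact permutation p = 0.593). The pigs below background were LP replicate 3 and HP replicate 2. The difference stood at 0.06 without LP replicate 3 and at -0.53 without HP replicate 2. For the receptor as a whole the widest interval thus still held a fold of 0.41 to 1.67 (LP over HP), and the brightest probe set a fold of 0.67 to 1.24.

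IRS1, the docking protein between the receptor and PI3-kinase, had the smallest limma p of the 9 probe sets. Levels of Ssc.7304.1.S1_at were 6.71, 7.47, 7.75, 7.59 and 7.35 in LP pigs. In HP pigs the lowest was 6.63, the median 7.14 and the highest 7.25. LP replicates 2 to 5 were above every HP pig, while LP replicate 1 was below all HP pigs but replicate 6. The means were 7.37 ± 0.40 in LP and 7.07 ± 0.23 in HP (SD, n = 5 and 6), and the difference was 0.31 ± 0.19 (SE), a fold of 1.24 with a 95% interval of 0.92 to 1.66 (limma p = 0.144, exact permutation p = 0.147, adjusted p at least 0.968 for this and the other 8 probe sets). LP replicate 1 was the only LP pig that overlapped the HP pigs. Without it the difference was 0.47, which passed limma's threshold. That the diets did not overlap without it follows from the levels above and adds no support. Leaving out any other array gave 0.21 to 0.34, and none of these passed.

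AKT1, the AKT form found in nearly all tissues, was read well by Ssc.19672.1.S1_at. LP pigs had 7.52, 7.46, 7.68, 7.68 and 7.36, and HP pigs had a lowest level of 7.54, a median of 7.71 and a highest level of 7.87. The levels of 3 LP pigs were below all HP pigs, and 3 HP pigs were above all LP pigs. The means of 7.54 ± 0.14 in LP and 7.70 ± 0.15 in HP differed by -0.16 ± 0.11 (SE), a fold of 0.89 with an interval of 0.75 to 1.06 (limma p = 0.181, exact permutation p = 0.0931). The other AKT1 probe set, Ssc.19672.2.A1_at, exceeded the controls only in LP replicate 4 and HP replicate 2. Its levels, -0.92 to 4.01 in LP and -2.83 to 3.70 in HP, are background readings, and no fold is given.

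AKT2, the form that insulin uses to raise glucose uptake in muscle, was bright on every array. The levels of Ssc.3815.1.S1_at were 11.67, 11.90, 11.72, 12.15 and 12.03 in LP pigs, and the HP pigs had a low of 11.46, a median of 12.02 and a high of 12.37. All LP pigs fell within the HP range. The means were 11.89 ± 0.20 in LP and 11.96 ± 0.36 in HP (SD, n = 5 and 6), and the difference of -0.07 corresponds to a fold of 0.95 with an interval of 0.72 to 1.27 (limma p = 0.725, exact permutation p = 0.723).

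TSC2, which holds the GTPase-activating domain of the TSC complex, differed least. Ssc.2515.2.S1_at read 6.76, 6.75, 6.98, 6.64 and 6.29 in LP pigs. HP pigs had a lowest level of 6.40, a median of 6.63 and a highest level of 6.97. Both the highest and the lowest of the 11 levels were LP pigs. The difference was 0.01 ± 0.15 (SE), with an interval of 0.80 to 1.27 for the fold (limma p = 0.963, exact permutation p = 0.965).

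RHEB, the GTPase on which TSC2 acts, was bright and varied little among LP pigs. Ssc.5964.1.S1_at read 12.07, 11.98, 11.93, 12.17 and 11.99 in LP and from 11.75 through a median of 12.18 to 12.34 in HP. The level was at or above 12.15 in 4 HP pigs, a level that 1 LP pig reached, and HP replicate 3 was the lowest of all. The means of 12.03 ± 0.09 in LP and 12.14 ± 0.22 in HP gave a difference of -0.12 ± 0.13 (SE), a fold of 0.92 within 0.76 to 1.12 (limma p = 0.377, exact permutation p = 0.294).

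**Figure D2:**
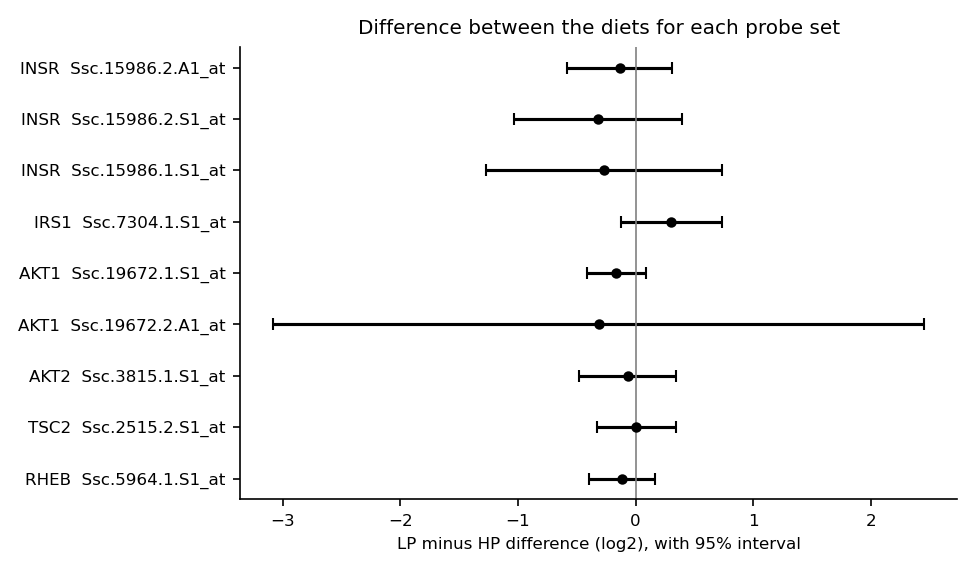
Difference of means, LP minus HP (log2), for each of the 9 probe sets, as points with the 95% interval from limma. All intervals hold 0. The interval of RHEB, from -0.39 to 0.16, and that of AKT1 Ssc.19672.1.S1_at, from -0.42 to 0.09, are among the narrow ones, and the background reading of AKT1 spans -3.09 to 2.46.

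AKT2 and RHEB, both bright, moved with the spike-ins across arrays. How many of all probe sets did so was not computed, so the relation cannot be called particular to these genes. The upper decile of all levels was 10.6 on HP replicate 3, which had the lowest spike-in mean. It was 10.94 on HP replicate 4, which had the highest. Over the 11 arrays the level of AKT2 and the mean spike-in level had Pearson's r = 0.908 (permutation p = 0.00022) and Spearman's rho = 0.927 (permutation p = 0.00018). For RHEB r was 0.878 (permutation p = 0.00032) and rho 0.836 (permutation p = 0.00254). In all 9 relations were computed, the 6 genes by their brightest probe set and 3 further genes described below, and the adjusted p of r was 0.00096 for both. HP replicates 2 and 4 lay farthest from the median on the spike-in axis, and without them r was 0.835 for AKT2 and 0.753 for RHEB. Within HP alone it was 0.981 and 0.906 (exact permutation p = 0.00278 each, the smallest that 6 arrays allow), and no correlation was computed for LP alone, where fewer than 6 arrays are at hand. Among LP pigs AKT2 was highest in replicates 4 and 5, the arrays with the highest spike-in means (11.77 and 11.64). RHEB followed the spike-ins less closely there, since LP replicate 1, with the lowest spike-in mean of the LP arrays (11.43), had the second highest RHEB level (12.07). AKT1 (r = 0.573, adjusted p = 0.12), TSC2 (r = 0.263, adjusted p = 0.56), INSR (r = 0.0865) and IRS1 (r = 0.0623, adjusted p = 0.857 for both) had no relation past the threshold.

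The sign of the difference of AKT2 and RHEB depended on how this array signal was treated. Centring each array on its spike-ins moved the median difference of all probe sets to 0.25 from -0.02, and gave 0.20 for AKT2 and 0.15 for RHEB, both below that shift. With the mean spike-in level as a covariate, chosen after the values were seen, the differences were 0.18 for AKT2 and 0.01 for RHEB, neither past the threshold. Quantile normalization gave 0.02 for AKT2 and -0.02 for RHEB, which kept its sign there. Under centring IRS1 stood at 0.57, above the general shift and past limma's threshold, and AKT1 at 0.10, below it.

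**Figure D3:**
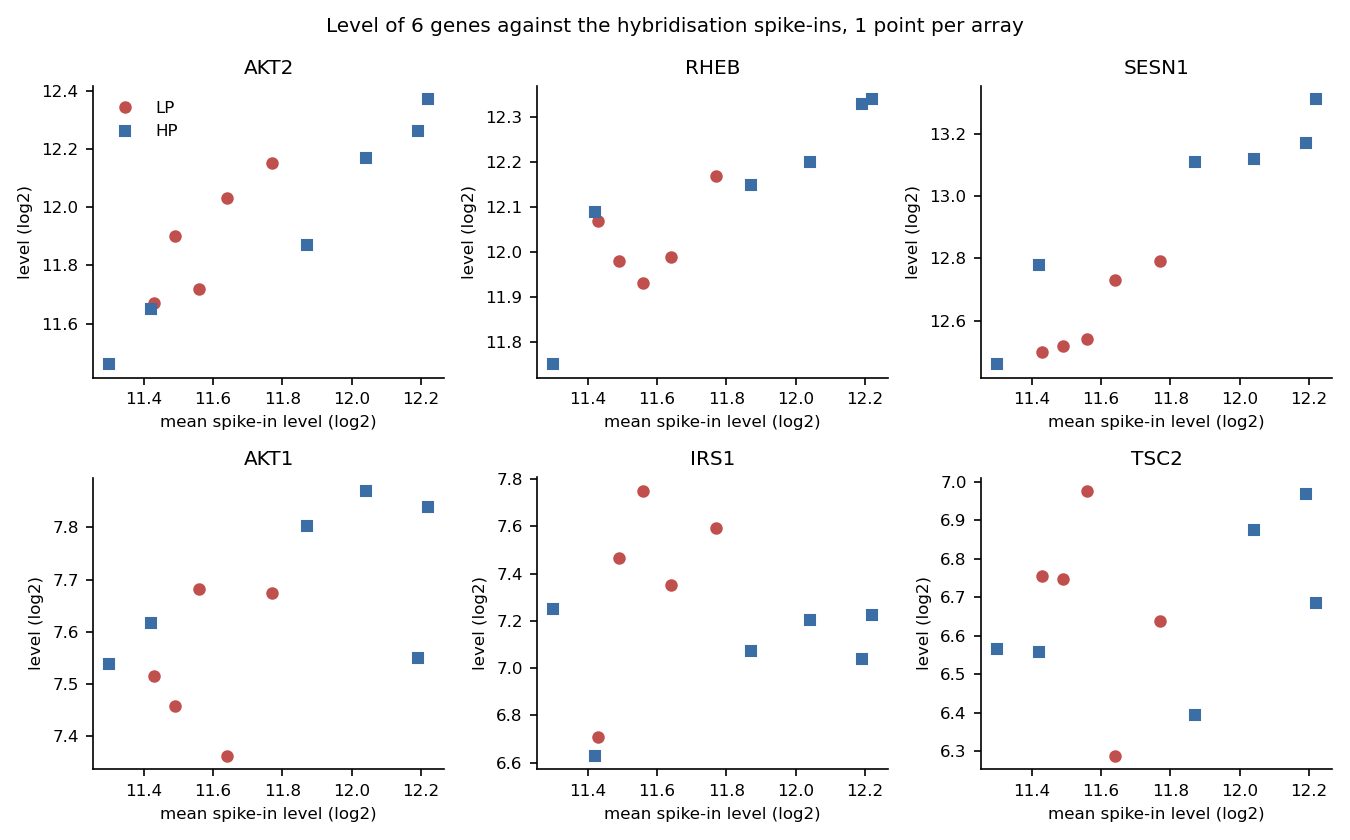
Level (log2) of AKT2, RHEB, SESN1, AKT1, IRS1 and TSC2 on the vertical axes against the mean level of the 27 spike-in probe sets (log2), 1 point per array, LP as circles and HP as squares. AKT2, RHEB and SESN1 (r = 0.908, 0.878 and 0.934) lie higher where the spike-ins are higher over all 11 arrays, and IRS1 (r = 0.0623) shows no such order.

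The pathway was then read more widely, from lists of 114 further genes grouped by role, each gene by its brightest probe set. Of these, 53 were measured, and 50 of the 53 were above the controls on all arrays. No gene was higher in LP and 3 were lower (5.66%), beside 1.57% higher and 3.16% lower of all 6765 genes. A count of 3 in 53 is near that background and says nothing of the pathway as a group. The median difference of the 53 genes was -0.10, beside -0.04 for all genes, and 33 of 53 were below 0, beside 3887 of 6765.

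**Figure D4:**
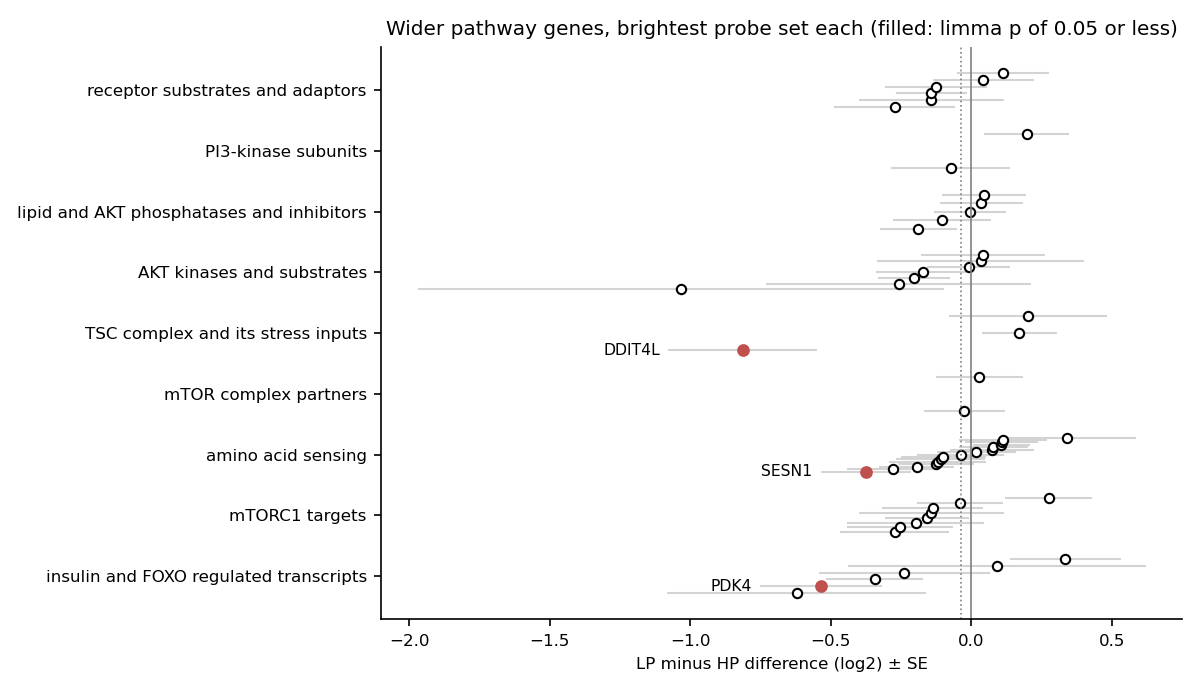
Difference LP minus HP (log2) ± SE for the genes of each role list, 1 point per gene, with the filled points past a limma p of 0.05. The dotted line is the median of all genes, -0.04. DDIT4L at -0.81, SESN1 at -0.38 and PDK4 at -0.53 are the filled points, and the most negative open point is TBC1D1 at -1.03 with an SE of 0.94.

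Next to the receptor, 6 of 12 listed substrates and adaptors were measured and 0 passed the test, with a median of -0.13. GAB1, a docking protein of the same kind as IRS1, came nearest at -0.27 ± 0.22 (SE, limma p = 0.233, exact permutation p = 0.247). Of the PI3-kinase subunits 2 of 9 were measured and 0 passed, and PIK3C3, the class III lipid kinase, stood at 0.20 ± 0.15 (limma p = 0.219, exact permutation p = 0.186). The phosphatases and inhibitors that oppose AKT had 5 of 13 genes measured, 0 past the test and a median of -0.00. PPP2CA, a catalytic subunit of protein phosphatase 2A, had the smallest p of these, with -0.19 ± 0.14 (limma p = 0.194, exact permutation p = 0.147).

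Around AKT itself, 7 of 11 kinases and substrates were measured and 0 passed. PDPK1, the kinase that phosphorylates AKT in its activation loop, stood at -0.20 ± 0.13 (SE, limma p = 0.14, exact permutation p = 0.0952). Of the partners of mTOR in its complexes 2 of 8 were measured, and MAPKAP1, a subunit of mTORC2, differed by 0.03 ± 0.15 (limma p = 0.855, exact permutation p = 0.835). Among targets of mTORC1 8 of 14 were measured and 0 passed. Below 0 were 7 of the 8, beside 3887 of all 6765 genes. EIF4E, the cap-binding translation factor that is freed when mTORC1 phosphorylates its binding proteins, was the exception in sign at 0.27 ± 0.15 (limma p = 0.102, exact permutation p = 0.0693).

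The 3 genes that passed were 1 of the 3 measured in the TSC complex and stress input list, 1 of the 15 in the amino acid sensing list and 1 of the 6 transcripts regulated by insulin and FOXO. DDIT4L is a stress-induced inhibitor of mTORC1 that is abundant in skeletal muscle. LP pigs had 8.82, 9.89, 9.57, 9.18 and 9.24, and in HP pigs the lowest level was 9.69, the median 10.05 and the highest 10.87. All LP pigs but replicate 2 were below all HP pigs, and LP replicate 2 lay above 3 of the HP pigs. The means were 9.34 ± 0.41 in LP and 10.15 ± 0.49 in HP (SD, n = 5 and 6). DDIT4L thus fell by 0.81 ± 0.27 (SE) on the log2 scale in LP, 1.76-fold higher in HP (limma p = 0.0109, adjusted p = 0.916, exact permutation p = 0.0238). Leaving out each array in turn gave -0.95 to -0.67, and DDIT4L passed each time. The relation of DDIT4L to the spike-ins was not past the threshold (r = 0.507, rho = 0.364, permutation p = 0.113 and 0.268, adjusted p = 0.169 and 0.403). With the spike-in covariate the difference was -0.69 and passed, and after centring on the spike-ins it was -0.55 and did not, against the general shift of 0.25.

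SESN1 encodes a sestrin, a protein that in mammalian cells holds mTORC1 back when leucine is scarce. Its brightest probe set, Ssc.9611.1.A1_at, read 12.50, 12.52, 12.54, 12.79 and 12.73 in LP pigs, and from 12.46 through a median of 13.11 to 13.31 in HP pigs. The levels of 4 HP pigs were above all LP pigs, and HP replicate 3 was the lowest of the 11. SESN1 fell by 0.38 ± 0.16 (SE) in LP, with a fold of 1.30 in favour of HP (limma p = 0.0393, adjusted p = 0.962, exact permutation p = 0.0476). A dimmer probe set, Ssc.7070.1.S1_at, described after its values were seen, also passed. Its LP levels lay close together between 10.57 and 10.62, against 10.55 to 11.31 in HP with a median of 11.10, and the difference was -0.43 ± 0.14 (limma p = 0.00981, exact permutation p = 0.0173). SESN1 also moved with the spike-ins (r = 0.934, rho = 0.909, permutation p = 0.00012 and 0.00038, adjusted p = 0.00096 and 0.00171), with r = 0.881 without HP replicates 2 and 4 and 0.954 within HP. With the spike-in covariate its difference was -0.17 and did not pass, and the call was lost when any one of HP replicates 1, 2, 4 and 5 or LP replicates 1, 2 and 3 was left out (-0.36 to -0.31).

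PDK4 restrains glucose oxidation by inhibiting pyruvate dehydrogenase, and insulin lowers its transcript through AKT and FOXO. Its brightest probe set, Ssc.1121.1.S1_at, had 12.52, 12.08, 12.17, 12.87 and 13.05 in LP pigs, against a lowest level of 12.47, a median of 13.20 and a highest level of 13.31 in HP pigs. HP replicates 1, 2, 4 and 5 lay above all LP pigs. PDK4 fell by 0.53 ± 0.22 (SE) in LP, and was 1.45-fold higher in HP (limma p = 0.0324, adjusted p = 0.962, exact permutation p = 0.0498). The other probe set, Ssc.10131.1.A1_at, stood at -0.70 ± 0.34 and did not pass (limma p = 0.0654, exact permutation p = 0.0931). The relation of PDK4 to the spike-ins was r = 0.73 and rho = 0.77 (permutation p = 0.00692 and 0.00714, adjusted p = 0.0156 and 0.0161), with r = 0.641 without HP replicates 2 and 4 and 0.844 within HP. With the covariate PDK4 stood at -0.33 and did not pass, and it lost its call without any one of HP replicates 1, 2, 4 and 5 or LP replicates 1, 2 and 3 (-0.53 to -0.42).

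**Figure D5:**
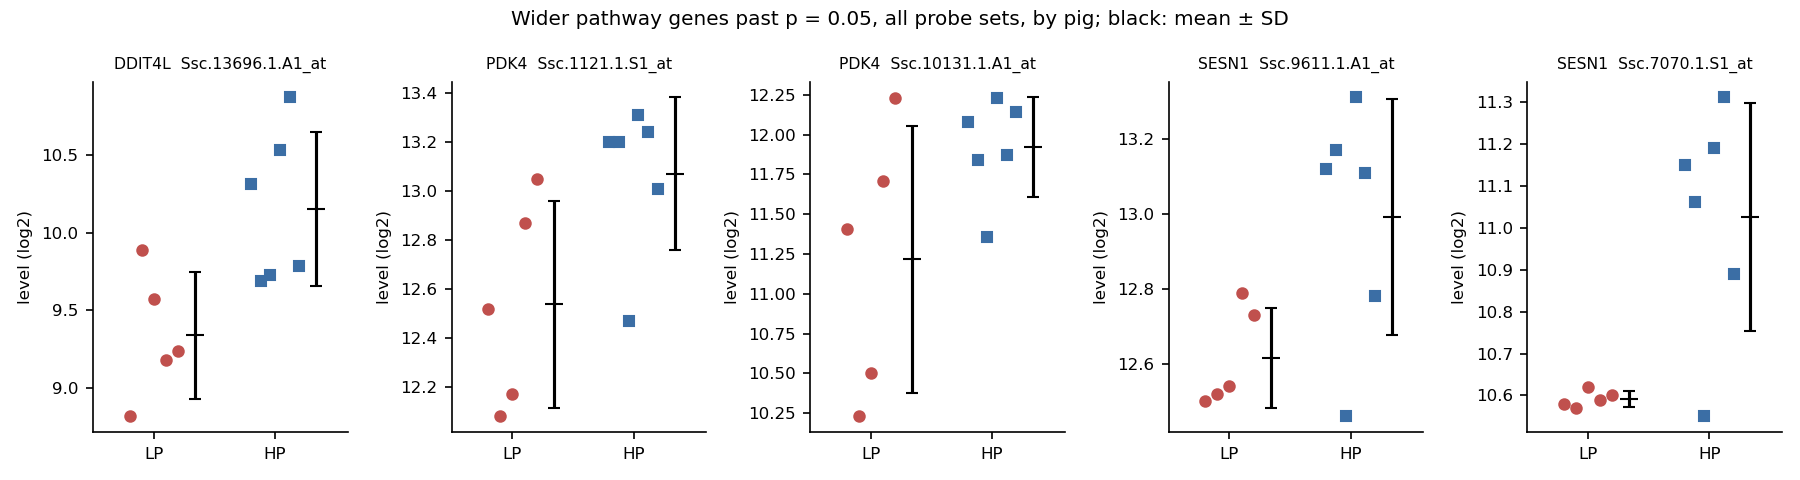
Level (log2) in every pig for all probe sets of the 3 genes that passed, with LP pigs as circles, HP pigs as squares and the mean ± SD in black. HP replicate 3, the third square, sits with the LP pigs for SESN1 (12.46 and 10.55) and is the lowest HP pig for PDK4 (12.47 and 11.36).

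Markers of the cell types in the muscle were read in the same way. Of 12 listed muscle fibre markers 8 were measured, all above the controls on all arrays, with a mean level of 13.12 to 13.54 in LP and 13.01 to 13.98 in HP pigs. All 8 were below 0 in LP minus HP, with a median of -0.24, beside 3887 of 6765 genes and a median of -0.04. MYL1 and TTN came nearest to the threshold (-0.26, exact permutation p = 0.156 and -0.25, p = 0.206). The spike-in mean differed by -0.26, and the relation of the 8 fibre markers to it was not tested. The 7 adipocyte markers measured of 10 averaged 6.86 to 7.44 in LP and 6.63 to 7.46 in HP pigs. Below 0 were 4 of the 7, with a median of -0.03. LEP, leptin, stood at 0.74 ± 0.34 (limma p = 0.0533, exact permutation p = 0.0887) and LIPE at -0.16 (exact permutation p = 0.597). Of 7 pericyte and smooth muscle markers 5 were measured, 3 of them below 0, with a median of -0.14. RGS5 fell by 0.44 ± 0.14 (limma p = 0.00804, exact permutation p = 0.00866), and PDGFRB stood at -0.14 (exact permutation p = 0.342). CNN1 and TAGLN lay on the other side of 0, at 0.12 and 0.01 (exact permutation p = 0.491 and 0.959).

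The fibroblast markers DCN and FBN1 differed by -0.28 and -0.26 (limma p = 0.0525 and 0.0972, exact permutation p = 0.0346 and 0.0714). DCN thus passed the permutation test but not limma's. Of the 5 fibroblast markers measured 4 were below 0, and LUM stood at 0.08 (exact permutation p = 0.558). Endothelial CLDN5 and ESAM stood at -0.20 and 0.15 (exact permutation p = 0.351 and 0.437). Of 8 listed macrophage markers 5 were measured. All 5 were below 0, with a median of -0.30, beside 3887 of 6765 genes and a median of -0.04. Past neither test were the macrophage markers CD14 and C1QA at -0.33 and -0.30 (exact permutation p = 0.266 and 0.297). The same held for HBB and ALAS2 of red blood cells at 0.13 and 0.16 (exact permutation p = 0.346 and 0.855). It also held for S100B and MBP of nerve at -0.40 and -0.03 (exact permutation p = 0.21 and 0.89). Of the lymphocyte markers PTPRC stood at 0.31 (exact permutation p = 0.413), and CD79B passed limma's test (p = 0.00432) but was above the controls on 0 of 11 arrays. In all, 46 of 69 markers were measured. By limma's test 0 were higher and 2 lower (4.35%), RGS5 and the background reading of CD79B, beside 1.57% higher and 3.16% lower of all genes. The mean level of every list overlapped between LP and HP. The part of cell composition in the levels of DDIT4L, SESN1 and PDK4 was not tested.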

How the data were processed

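RNA from the *M. semimembranosus* of 5 LP and 6 HP gilts was hybridised to 1 array per pig. The authors deposited log2 levels, 1 for each probe set and array, and worked in R and Bioconductor with puma. How background and normalisation were handled is not given in the sources used here. The arrays held 24123 probe sets. The 124 controls among them were not tested, and no filter on low levels was applied. The annotation gave 1 symbol to 10069 probe sets, several to 198 and none to 13732. Symbols of the 6 measured genes matched RefSeq by gene ID. Depth has no meaning for arrays, and the number of pigs limits the precision.

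LP minus HP was fitted for all probe sets in R 4.3.3 with limma 3.58.1 (constant prior, two-sided, p of 0.05 or less, Benjamini-Hochberg adjustment over 23999), with 95% intervals from the moderated SE. The exact permutation test used all 462 divisions of the pigs, with a smallest p of 0.00216. Correlations used 1e+05 random orders of the arrays. The fit was tested on simulated data. Wider genes were read by their brightest probe set (highest mean). Genes past the threshold were named, or else the 1 with the smallest p of each pathway list, and the 2 with the smallest p of each marker list. The genes and lists were chosen with earlier results of these data known. Array intensity files were not used here.

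The alternatives were quantile normalization, centring on the spike-ins, leaving out probe sets below the median, a floor at the 20th percentile of each array, limma's array weights, its trended robust prior, a block by replicate number, each array left out once, HP replicates 1, 2 and 4 (the brightest in an earlier analysis) left out together, the permutation test, and the mean over a gene's probe sets. The spike-in covariate was chosen after the values were seen.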

Additional observations from a re-analysis of the deposited data

Results flagged for a closer look

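Single arrays far from the others of their diet were searched for in 28 groups of 5 or 6 pigs by Dixon's test, which chance passes in about 1 in 20 groups, and 2 were found. For IRS1, HP replicate 6 at 6.63 lay below the other HP pigs, which spanned 7.04 to 7.25. Without it the difference was 0.22, still not past the threshold. For PDK4 Ssc.1121.1.S1_at, HP replicate 3 at 12.47 lay below the other HP pigs at 13.01 to 13.31, and without it the difference was -0.65 and still passed. HP replicate 3 also had the lowest mean spike-in level, 11.30.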

How the results depend on the processing

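With 11 pigs, the intervals of the 9 probe sets still hold folds of the size given in the report. Of 1227 probe sets past the threshold in all (515 higher and 712 lower in LP), leaving out 1 array gave 1066 to 1521, centring on the spike-ins 2179 (2065 higher and 114 lower), leaving out dim probe sets 710, and leaving out HP replicates 1, 2 and 4 together 1884 (1129 higher and 755 lower). The probe sets of the pathway genes past it numbered 0, with 1 (IRS1) under centring and 0 to 1 on leaving out 1 array. Those whose diets did not overlap numbered 0, also under centring, and 1 only without LP replicate 1. The wider pathway genes numbered 3, with 6 under centring (all higher in LP), 5 with the spike-in covariate (3 higher and 2 lower), 4 (3 higher and 1 lower) without HP replicates 1, 2 and 4, and 1 (without HP replicate 1, HP replicate 2, LP replicate 1 or LP replicate 2) to 9 (without HP replicate 3) on leaving out 1 array. Marker genes numbered 2, with 4 under a trended robust prior and 2 to 5 (without HP replicate 5) on leaving out 1 array.

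Centring on the spike-ins turned the sign of AKT1 Ssc.19672.1.S1_at (0.10), AKT2 (0.20), INSR Ssc.15986.2.A1_at (0.13) and RHEB (0.15), all below the general shift of 0.25, and gave -0.11 for SESN1 and -0.27 for PDK4. AKT2 also turned under quantile normalization (0.0247), the covariate (0.18) and without HP replicates 1, 2 and 4 (0.24), where RHEB stood at 0.0316, SESN1 at -0.17, PDK4 at -0.37 and the background reading of AKT1 at 0.61. RHEB stood at 0.0128 with the covariate. Raising low levels gave 0.0716 for that AKT1 reading. On leaving out 1 array AKT1 Ssc.19672.2.A1_at ran from -1.11 to 0.20, AKT2 from -0.17 to 0.0137, INSR Ssc.15986.1.S1_at from -0.53 to 0.0551, TSC2 from -0.0667 to 0.11, SESN1 from -0.48 to -0.31 and PDK4 from -0.66 to -0.42. The mean of all probe sets was -0.24 for INSR (exact permutation p = 0.303) and -0.24 for AKT1 (p = 0.74). The cause of these changes was not tested.

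The replicate numbers shared by the diets showed no sign of pairing in the levels (correlations of same-numbered pigs -0.15 to 0.09). By these correlations 0 of 5 LP pigs were closest to their own number. Whether the numbers follow the starting-weight blocks cannot be told from the levels. No LP pig shared the number of HP replicate 6, so under the replicate block that pig did not enter the difference. The differences were therefore the same as without HP replicate 6. With this block 1232 probe sets passed, 0 of the 9 and 4 wider pathway genes. TSC2 stood at -0.0162, and DDIT4L (-0.89), SESN1 (-0.42) and PDK4 (-0.55) kept their calls.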
